A study of Mus musculus with 10 samples.

Results

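The genes described here are 43 enzymes, carriers and regulators of glucose breakdown, chosen by gene symbol from 24608 symbols in the count table. Glycolysis and lactate took 22 of them, the mitochondrial pyruvate carrier with the pyruvate dehydrogenase complex and its kinases took 7, and the tricarboxylic acid (TCA) cycle took 14. Their transcripts were counted in muscle stem cells (MuSCs) sorted at day 3 after cardiotoxin (CTX) injury of skeletal muscle, in 5 control and 5 Trpm7 cKO libraries of 3000 cells each. Control mice were Trpm7+/+ and Trpm7 cKO mice Trpm7flox/flox, and both groups carried Pax7CreERT2/+ and Rosa26YFP on a C57BL6 background, received 5 daily tamoxifen injections and were adults of 7 to 20 weeks. Deletion was therefore restricted to cells in which the Pax7-driven, tamoxifen-inducible Cre recombinase was active, and the sort used the YFP reporter that the same recombinase switches on. The comparison asks how far the transcripts of central carbon metabolism differ when TRPM7, a channel kinase that carries divalent cations such as magnesium into the cell, is deleted before activation of MuSCs.

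Glycolysis splits glucose to pyruvate in the cytosol, with hexokinase, phosphofructokinase and pyruvate kinase as its controlled steps, and lactate dehydrogenase turns pyruvate into lactate when it is not oxidised. Pyruvate that enters mitochondria through the Mpc1 and Mpc2 carrier is turned into acetyl-CoA by the pyruvate dehydrogenase complex, which the Pdk kinases inactivate, and the TCA cycle oxidises the acetyl group and feeds electrons to the respiratory chain. Quiescent MuSCs contain little mitochondrial mass, and both glycolysis and oxidative metabolism increase when they activate. The kinases of the pathway and enolase need magnesium as a cofactor.

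The regulatory sequences of 3 genes that mark the range of responses below are shown first. Eno3, the muscle enolase, had the largest decrease, Pfkfb3, the regulator of phosphofructokinase, was the gene that increased, and Ldha, lactate dehydrogenase A, decreased less than Eno3. Each window runs from 250 bases before to 50 bases after an annotated start in RefSeq on GRCm38.p6, is written 5′ to 3′ on the strand of the gene, and has in capitals the cores ACGTG and GCGTG of the hypoxia response element, on either strand (CACGT and CACGC on the opposite one), and the muscle E-box CAGCTG. Overlapping matches run together, so that CACGTG is the core ACGTG read on both strands.
Eno3, chr11:70656926-70657225, plus strand: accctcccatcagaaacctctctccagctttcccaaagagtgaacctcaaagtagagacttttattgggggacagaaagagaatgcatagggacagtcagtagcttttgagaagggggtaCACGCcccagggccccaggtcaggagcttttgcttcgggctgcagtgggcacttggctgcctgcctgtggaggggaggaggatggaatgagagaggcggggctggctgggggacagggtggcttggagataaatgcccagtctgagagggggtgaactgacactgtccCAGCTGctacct
Pfkfb3, chr2:11502041-11502340, minus strand: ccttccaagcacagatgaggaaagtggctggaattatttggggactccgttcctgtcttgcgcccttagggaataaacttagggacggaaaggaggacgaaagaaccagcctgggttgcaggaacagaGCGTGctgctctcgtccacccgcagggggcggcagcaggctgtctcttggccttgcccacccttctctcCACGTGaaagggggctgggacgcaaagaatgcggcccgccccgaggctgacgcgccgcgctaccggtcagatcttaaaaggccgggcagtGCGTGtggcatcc
Pfkfb3, chr2:11553880-11554179, minus strand: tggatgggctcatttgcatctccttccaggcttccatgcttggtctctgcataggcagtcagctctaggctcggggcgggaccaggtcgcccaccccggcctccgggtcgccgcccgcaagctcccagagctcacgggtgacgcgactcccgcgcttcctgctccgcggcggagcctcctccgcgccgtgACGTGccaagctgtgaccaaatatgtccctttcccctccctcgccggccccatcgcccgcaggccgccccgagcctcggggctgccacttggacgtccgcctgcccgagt
Ldha, chr7:46845554-46845853, plus strand: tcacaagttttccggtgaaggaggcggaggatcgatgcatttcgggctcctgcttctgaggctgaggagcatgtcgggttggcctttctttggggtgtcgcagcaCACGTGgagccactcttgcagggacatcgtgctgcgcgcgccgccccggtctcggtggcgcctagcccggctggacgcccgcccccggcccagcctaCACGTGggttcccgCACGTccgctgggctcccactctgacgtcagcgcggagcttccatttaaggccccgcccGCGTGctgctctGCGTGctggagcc
The Eno3 window held 1 hypoxia core and 1 CAGCTG and had 3 CpG dinucleotides. The upstream and downstream Pfkfb3 starts lay in windows with 1 and 4 hypoxia cores, and the printed Ldha window held 7 cores and 30 CpG dinucleotides. Another Ldha window, chr7:46846832-46847131, is not printed and held 2 cores and 13 CpG dinucleotides. Windows were found for 42 of the 43 genes, and Idh3a had none. Either core was present in 32 of the 42 genes (76.2%), compared with 46.7% of all 27025 genes with a window and 70.6% of the 6107 of them that were tested below. Among the genes with a window that were lower in Trpm7 cKO, 15 of 21 held a core. CAGCTG was present in 7 of the 42 genes (16.7%), compared with 18.3% of all genes and 16.7% of tested genes. The E-box CACGTG, which contains a hypoxia core, was present in 5 of the 42 (11.9%), compared with 12.5% of tested genes, and TCAAGGTCA, a site of the estrogen-related receptors, in 0, compared with 0.229% of tested genes.

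The 43 genes lie on 17 chromosomes of GRCm38, Eno3 at chr11:70657202-70662513, Pfkfb3 at chr2:11471433-11554077 and Ldha at chr7:46841475-46855627. Tpi1, Pfkp, Slc2a1, Mpc1, Pdha1 and Idh3b, 6 in all, overlap a gene on the opposite strand, and whether the counting used strand is not given in the sources used here.

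Values are unique molecular identifier (UMI) counts from the 3′ end, in which 1 count stands for 1 captured molecule whatever the length of the transcript, and levels are given as CPM, the count scaled to a common library size, after trimmed mean of M values (TMM) normalization. Control libraries held 914361 to 1097709 counts and Trpm7 cKO libraries 205986 to 581121, so that the groups did not overlap in depth. The fixed number of sorted cells was the same in all libraries, and the counts do not tell what lowered the totals. Fewer MuSCs among the sorted cells and less RNA per cell, for example, cannot be told apart. Trpm7 itself was read at its 3′ end, which does not check the deleted exon, and had 76.9 ± 9.97 CPM in control and 71.4 ± 22 CPM in Trpm7 cKO (SD, n = 5 each). None of 20 MuSC identity genes was at 0 throughout a group, with summed levels of 3159 to 3743 CPM in control and 3501 to 6266 CPM in Trpm7 cKO. Of the 18 tested, 12 were called higher (66.7%, compared with 24.6% of all tested genes) and 2 lower (11.1%). The list was therefore not constant between genotypes. Of the leukocyte markers, 28 of 28 tested were higher in Trpm7 cKO, with summed levels of 491 to 823 CPM in control and 1802 to 7915 CPM in Trpm7 cKO. Endothelial markers (149 to 734 CPM, control 7.51 to 77.6 CPM) and erythroid markers (146 to 3277 CPM, control 1.99 to 178 CPM) were also higher, with 4 of 4 and 3 of 3 tested genes called, and 4 of 5 tested markers of fibro-adipogenic progenitors were higher. The part of these cells in the results below was not tested, except where a value is given.

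Of the 43 genes, 34 had enough counts to be tested, of 7753 tested in all. At an adjusted p below 0.05 by edgeR's quasi-likelihood test, 22 were lower in Trpm7 cKO (64.7%), 1 was higher and 11 were not called. Of all tested genes, 24.1% were lower and 24.6% higher. The median log2 fold change was -0.78 over the 34 genes and -0.01 over all tested genes. With a log2 fold change beyond 1.5 as well, Eno3, Gapdh and Aldoa were lower and Pfkfb3 was higher, compared with 3.53% and 8.49% of all tested genes in these directions. The 5 control and 5 Trpm7 cKO levels did not overlap for 18 genes that were lower and 1 that was higher, compared with 17.9% and 16.6% of all tested genes. The 43 genes together took 0.767 to 0.86% of all counts in control libraries and 0.343 to 0.51% in Trpm7 cKO libraries.

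**Figure D1:**
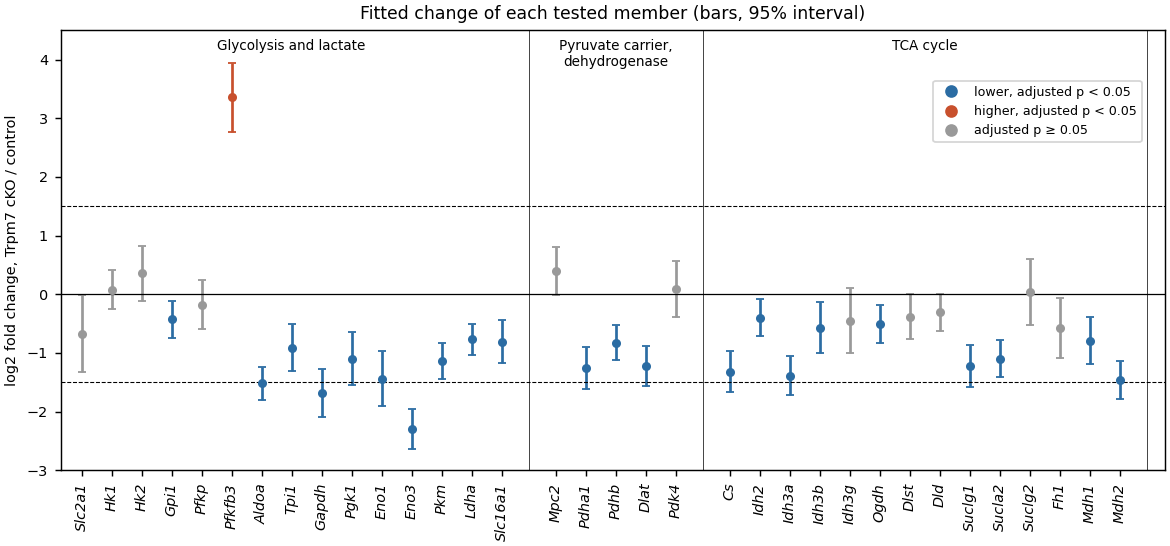
Fitted log2 fold change of Trpm7 cKO over control (vertical axis) for the 34 tested genes, in pathway order, with points for the estimate, bars for the 95% interval, and dashed lines at the fold change threshold of 1.5 in either direction. From Aldoa to Slc16a1 every tested glycolysis and lactate gene lies below 0, whereas Pfkfb3 stands at 3.36.

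These counts depended on how the leukocyte signal was treated. When the mean level of the 28 leukocyte markers was added to the fit, 4 glycolysis genes (Aldoa, Tpi1, Eno3 and Pkm) and Pfkfb3 were still called, and 0 pyruvate dehydrogenase and 0 TCA cycle genes were. The median log2 fold change of the 34 genes was -0.78 in that fit too, and Mdh2 (-1.45), Sucla2 (-1.17), Pdhb (-0.81) and Ldha (-1.01) lost their calls (adjusted p = 0.0777, 0.141, 0.309 and 0.12) with a fold change about as large or larger than without the markers. Others shrank, such as Gapdh (-0.45), Pdha1 (-0.57) and Mdh1 (-0.26). In the same fit the number of all tested genes called lower dropped from 1866 to 121. The marker level did not overlap between genotypes (mean log2 CPM 3.62 to 4.19 in control, 5.43 to 7.39 in Trpm7 cKO), so that genotype and marker level cannot be fully told apart in this fit. Without the libraries with the highest marker levels, Trpm7 cKO 4 and 5, all 23 called genes were called in the same direction. Trpm7 cKO 1 and 3, which stayed in that fit, had leukocyte sums of 4592 and 4724 CPM, so the marker difference between genotypes stayed too. Without the smallest libraries, Trpm7 cKO 3 and 5, all 23 genes were called in the same direction as well. Trpm7 cKO 2 had the lowest leukocyte sum of its group (1802 CPM), which was still above the highest control sum of 823 CPM. Its glycolysis sum was 2409 CPM, and the other Trpm7 cKO libraries had 2232 to 2848 CPM. The part of leukocytes in these sums was not tested.

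Transport and phosphorylation of glucose are the first steps of glycolysis, and none of their tested genes, Slc2a1, Hk1 and Hk2, passed the test. Slc2a1, the glucose transporter GLUT1, had 28.8, 18.6, 21.4, 23.1 and 17.4 CPM in control and 12.9, 12.9, 29.2, 8.28 and 11 CPM in Trpm7 cKO. Trpm7 cKO 3 was above every control library and the others were below, and the difference (log2 fold change -0.67, 95% interval -1.33 to -0.01) was not called (adjusted p = 0.0885). Without Trpm7 cKO 3 it was -0.95, with an adjusted p of 0.0207. The hexokinases, which trap glucose as glucose 6-phosphate, overlapped between genotypes. Hk1 had 81.0 to 123 CPM in control and 87.7 to 116 CPM in Trpm7 cKO (log2 fold change 0.08, 95% interval -0.25 to 0.41, adjusted p = 0.71). Hk2 had 60.2 to 92.5 CPM in control and 69.9 to 160 CPM in Trpm7 cKO, with Trpm7 cKO 3 and 5 at 142 and 160 (log2 fold change 0.36, 95% interval -0.12 to 0.83, adjusted p = 0.203). Scaling on MuSC identity genes and comparison per 3000 sorted cells shift all genes together, to medians of -0.51 and -1.15, so that any gene near 0 takes a negative sign there, as Hk1 (-0.41 and -1.07) and Hk2 (-0.12 and -0.90) did. Relative to those medians both stayed above the typical gene.

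Of the next enzymes, Gpi1, which isomerises glucose 6-phosphate to fructose 6-phosphate, was lower by a small margin. Its levels were 178, 197, 157, 174 and 168 CPM in control and 107, 110.4, 149.8, 136 and 166 CPM in Trpm7 cKO. Trpm7 cKO 5 lay inside the control range, and the log2 fold change was -0.42 ± 0.15 (SE, adjusted p = 0.0266). The call was lost when any of control 2, Trpm7 cKO 1 or Trpm7 cKO 2 was left out (adjusted p 0.0623, 0.06 and 0.0687). Among the phosphofructokinases, which commit sugar to glycolysis, Pfkp was the tested one and had 44.0 to 62.2 CPM in control and 31.4 to 64.6 CPM in Trpm7 cKO (log2 fold change -0.18, 95% interval -0.6 to 0.24, adjusted p = 0.493). Pfkl, the liver type, had 7 to 13 counts per control library and 4 to 7 per Trpm7 cKO library, and Pfkm, the muscle type, 5 to 23 and 1 to 13, too few to test.

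Pfkfb3 makes and removes fructose 2,6-bisphosphate, the strongest activator of phosphofructokinase, and was the only tested gene of the 43 that was called higher. It had 5.97, 7.23, 5.36, 4.02 and 5.79 CPM in control and 83.1, 64.4, 58.5, 41.4 and 44.1 CPM in Trpm7 cKO. Every Trpm7 cKO library was above every control library, although these levels stood for 4 to 7 and 8 to 45 counts. The control counts lay below the minimum count of 10, so the gene passed the filter only through its Trpm7 cKO levels. With a filter that asked for a mean of 10 counts in both genotypes it was not tested. The difference was 10.2-fold (log2 fold change 3.36 ± 0.28 SE, adjusted p = 2.5e-08). With the leukocyte marker level in edgeR's fit the log2 fold change was 4.02 (adjusted p = 0.000674), but genotype and marker level cannot be fully told apart there. The part of other cells in the Pfkfb3 level was not tested.

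From aldolase onwards every tested gene of glycolysis was lower in Trpm7 cKO, a run that was described after its values were seen. Aldoa, the main aldolase of muscle, which splits fructose 1,6-bisphosphate, had 902, 785, 787, 798 and 743 CPM in control and 237 to 331 CPM in Trpm7 cKO. The groups did not overlap, with a 2.87-fold decrease (log2 fold change -1.52 ± 0.14, SE, adjusted p = 4.76e-08). Of the last 500 bases of its transcript, 59.8% were shared with other genes, but those in the table had 0 or 1 counts per library. The brain aldolase Aldoc had at most 1 count in any library. Tpi1, which interconverts the triose phosphates that aldolase makes, had 253, 251, 208, 222 and 216 CPM in control. Its levels in Trpm7 cKO were 88.7, 90.2, 95, 177 and 171 CPM, all lower than in control but split into a lower set of replicates 1 to 3 and a higher set of replicates 4 and 5. The log2 fold change was -0.91 ± 0.19 (SE, adjusted p = 0.000596).

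Gapdh, which oxidises glyceraldehyde 3-phosphate and reduces NAD+, had 1053, 710.4, 1091, 1272 and 846 CPM in control and 309, 447, 216, 325 and 215 CPM in Trpm7 cKO. It was lower in every Trpm7 cKO library, 3.22-fold on average (log2 fold change -1.69 ± 0.20, SE, adjusted p = 1.39e-06). With the leukocyte marker level in the fit this was -0.45 (adjusted p = 0.644), whereas Pgk1, the next enzyme, was at -1.84 (adjusted p = 0.103). The last 500 bases of its transcript were wholly shared with other annotated genes, 250 of them pseudogenes, and those in the table took 131 to 202 counts in control libraries beside 688 to 1267 for Gapdh, and 33 to 60 in Trpm7 cKO libraries beside 39 to 243. Its count is uncertain to that extent, which is a larger part of the count in Trpm7 cKO. Pgk1, whose reaction yields the first ATP of the pathway, had 50.7 to 79.9 CPM in control and 22.1 to 36.5 CPM in Trpm7 cKO. It was 2.14-fold lower, with no overlap (log2 fold change -1.10 ± 0.21, SE, adjusted p = 0.000267). The phosphoglycerate mutases Pgam1 (1 to 7 counts) and Pgam2 (0 to 5 counts) were too low to test.

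Enolase makes phosphoenolpyruvate, and its gene Eno3 gave the largest decrease. Eno3, the muscle form, had 406, 330.4, 353, 368 and 335 CPM in control and 55.4, 69.9, 73.1, 99.4 and 60.7 CPM in Trpm7 cKO. The highest Trpm7 cKO library was far below the lowest control library, and the difference was 4.9-fold (log2 fold change -2.29 ± 0.17, SE, adjusted p = 5.31e-09). Eno1, the form found in most tissues, had 71.6, 72.3, 71.9, 70.3 and 44.0 CPM in control and 18.5, 25.8, 18.3, 28.2 and 33.1 CPM in Trpm7 cKO. These did not overlap either, although control 5 was apart from the other control libraries (log2 fold change -1.44 ± 0.23, SE, adjusted p = 3.16e-05). Of the last 500 bases of the Eno1 transcript, 97.2% were shared with other genes, mainly Eno1b, which with the other sharing genes took 14 to 43 counts in control libraries and 4 to 20 in Trpm7 cKO libraries beside 38 to 72 and 5 to 17 for Eno1. Eno2, an enolase gene outside the 43, went the other way but had too few counts to test. It had 0 to 3 counts per control library and 3 to 15 per Trpm7 cKO library, without overlap in level (1.02 ± 1.45 and 19.3 ± 7.26 CPM, SD, n = 5 each). Pkm, the pyruvate kinase of muscle and of most proliferating cells, had 1238, 1229.8, 1010.3, 1029 and 1153 CPM in control. In Trpm7 cKO it had 495, 439.8, 457, 704 and 458 CPM, all lower than in control, with replicate 4 the highest (log2 fold change -1.14 ± 0.15, SE, adjusted p = 4.25e-06).

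Ldha, the main subunit of lactate dehydrogenase in muscle, had 891, 761, 804, 782 and 809 CPM in control and 427, 453, 482, 562 and 453 CPM in Trpm7 cKO. It was 1.7-fold lower without overlap (log2 fold change -0.77 ± 0.13, SE, adjusted p = 6.09e-05), a smaller decrease than that of Eno3, Gapdh and Aldoa by point estimate, a difference between genes that was not tested. Ldhb, the subunit of heart, was not tested for level, with 6 to 14 counts per control library and 3 to 10 per Trpm7 cKO library. Slc16a1, the lactate and pyruvate transporter MCT1, had 165, 217, 167, 114 and 194 CPM in control and 81.3, 99.4, 117, 103 and 88.3 CPM in Trpm7 cKO. Trpm7 cKO 3 was just above control 4, the only overlap, and the log2 fold change was -0.81 ± 0.18 (SE, adjusted p = 0.000792). Slc16a3, the lactate exporter MCT4, had 1 to 3 counts per control library and 1 to 5 per Trpm7 cKO library, too few for a level.

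**Figure D2:**
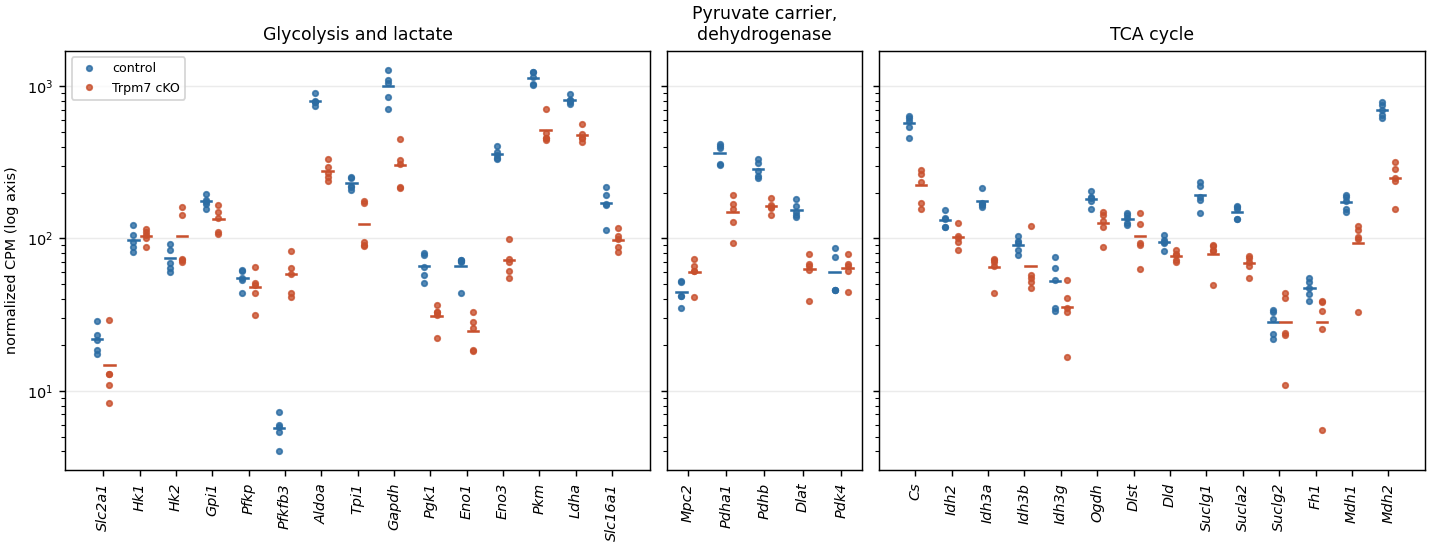
Normalized level of each tested gene in each library (vertical log axis, CPM), with control in blue, Trpm7 cKO in red, points for the 5 libraries and short lines for the group means. Hk1, Hk2 and Pfkp overlap between genotypes, whereas Aldoa, Gapdh, Eno3, Pdha1, Idh3a and Mdh2 do not.

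Of the 15 tested glycolysis and lactate genes, 10 were thus lower (66.7%), 1 was higher and 4 were not called, with a median log2 fold change of -0.81. The 22 genes summed to 5519, 4915, 5001, 5236 and 4854 CPM in control and to 2232, 2409, 2331, 2848 and 2378 CPM in Trpm7 cKO. No Trpm7 cKO library reached the lowest control sum.

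Entry of pyruvate into mitochondria was read from the carrier subunits. Mpc2 had 35.1 to 52.2 CPM in control and 41.4 to 73.1 CPM in Trpm7 cKO, with a log2 fold change of 0.40 (95% interval -0.02 to 0.81, adjusted p = 0.106). Its values under the common shifts of identity scaling and of counts per 3000 sorted cells were -0.12 and -0.78, and the gene was called higher with total counts alone or without Trpm7 cKO 4 (adjusted p = 0.0436 and 0.0353). Mpc1, its partner subunit, had at most 2 counts in control and 0 in every Trpm7 cKO library; a count of 0 allows up to 3 counts per library.

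Pdha1, Pdhb and Dlat of the pyruvate dehydrogenase complex were lower in every Trpm7 cKO library than in any control library, while Dld, its enzyme E3, is given with the TCA cycle. Pdha1, the alpha subunit of the first enzyme E1 and the target of the Pdk kinases, had 404, 304, 416, 395 and 307 CPM in control and 194, 167, 128, 157 and 93.8 CPM in Trpm7 cKO. No levels overlapped and the decrease was 2.38-fold (log2 fold change -1.25 ± 0.17, SE, adjusted p = 5.84e-06). Pdhb, the beta subunit of E1, had 279, 255, 313, 334 and 249 CPM in control and 166, 142, 183, 159 and 160 CPM in Trpm7 cKO. It was 1.78-fold lower, again with no overlap (log2 fold change -0.83 ± 0.14, SE, adjusted p = 7.41e-05). Dlat, the acetyltransferase E2 at the core of the complex, had 148, 143, 180.2, 162 and 138 CPM in control and 79.5, 66.2, 62.1, 67.9 and 38.6 CPM in Trpm7 cKO, a 2.34-fold decrease without overlap (log2 fold change -1.23 ± 0.17, SE, adjusted p = 5.68e-06).

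Pdk4, a kinase that switches the complex off and is induced by fasting and fatty acids, had 45.7, 86.7, 46.1, 46.2 and 75.2 CPM in control and 79.5, 68.1, 65.8, 44.7 and 60.7 CPM in Trpm7 cKO. The groups overlapped over most of their range, with a log2 fold change of 0.09 (95% interval -0.39 to 0.57, adjusted p = 0.769) that became -0.44 and -1.06 under the same common shifts. Pdk1, the kinase induced by hypoxia, had 0 to 5 counts per library and was not tested. Of the 5 tested genes of this group, 3 were lower (60%), 0 were higher and 2 were not called by edgeR's test, with the same 3 lower and 0 higher in DESeq2 and limma-voom and a median log2 fold change of -0.83. The 7 genes summed to 816 to 1010.3 CPM in control and 425 to 586 CPM in Trpm7 cKO.

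The TCA cycle was measured at every step listed, with 14 of 14 genes tested. Cs, citrate synthase, which joins acetyl-CoA to oxaloacetate and is commonly used as a measure of mitochondrial mass, had 618, 537, 635, 593 and 457 CPM in control and 266, 236, 157, 283 and 171 CPM in Trpm7 cKO. Its levels did not overlap, with a 2.49-fold decrease (log2 fold change -1.32 ± 0.17, SE, adjusted p = 2.5e-06). Mdh2, the mitochondrial malate dehydrogenase that regenerates oxaloacetate, had 782, 618, 746, 701 and 647 CPM in control and 285, 239, 248, 315 and 155 CPM in Trpm7 cKO. It had the largest decrease of the cycle, 2.75-fold and without overlap (log2 fold change -1.46 ± 0.16, SE, adjusted p = 5.29e-07).

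The NAD-dependent isocitrate dehydrogenase, a controlled step of the cycle, is built from 3 different subunits, of which Idh3a and Idh3b were called. Idh3a, the catalytic subunit, had 165, 161, 169, 214 and 172 CPM in control and 72.1, 69.9, 65.8, 72.9 and 44.1 CPM in Trpm7 cKO, 2.61-fold lower with no overlap (log2 fold change -1.39 ± 0.16, SE, adjusted p = 9.05e-07). Idh3b had 103, 77.4, 96.5, 93.4 and 84.5 CPM in control and 57.3, 51.5, 47.5, 54.7 and 121 CPM in Trpm7 cKO. In Trpm7 cKO 5 alone Idh3b was above every control library, and the log2 fold change was -0.57 ± 0.20 (SE, adjusted p = 0.0263) with that library and -0.77 (adjusted p = 0.000968) without it. The call was lost without any of control 1, control 3, Trpm7 cKO 2 or Trpm7 cKO 3 (adjusted p 0.0642, 0.0516, 0.0648 and 0.0561), and Idh3b overlaps Nop56 on the opposite strand. Idh3g, the regulatory gamma subunit, had 33.6 to 75.1 CPM in control and 16.6 to 53.6 CPM in Trpm7 cKO and was not called (log2 fold change -0.45, 95% interval -1.01 to 0.11, adjusted p = 0.175). Idh2, the NADP-dependent mitochondrial enzyme, had 118 to 154 CPM in control and 84.0 to 127 CPM in Trpm7 cKO. Its small decrease (log2 fold change -0.40 ± 0.15, SE, adjusted p = 0.034) lost its call in 6 of the 10 fits that left out 1 library, with adjusted p from 0.0186 to 0.0854 over the 10.

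Of the oxoglutarate dehydrogenase complex, Ogdh was called and Dlst and Dld were not. Ogdh, its first enzyme, had 205, 183, 175, 187 and 156 CPM in control and 131, 119.6, 87.7, 149 and 143 CPM in Trpm7 cKO, a 1.43-fold decrease without overlap (log2 fold change -0.51 ± 0.15, SE, adjusted p = 0.00944). Dlst, its acyltransferase, had 122 to 147 CPM in control and 62.8 to 147 CPM in Trpm7 cKO (log2 fold change -0.38, 95% interval -0.77 to 0.01, adjusted p = 0.0997). Without Trpm7 cKO 4, its highest library, it was -0.61 with an adjusted p of 0.00702. Dld, the flavoprotein shared by this complex and pyruvate dehydrogenase, had 83.3 to 105 CPM in control and 69.9 to 84.0 CPM in Trpm7 cKO. A single Trpm7 cKO library passed the lowest control library, and the log2 fold change of -0.30 (95% interval -0.62 to 0.01) was not called (adjusted p = 0.0997).

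Succinyl-CoA synthetase, which makes GTP or ATP directly, pairs the alpha subunit Suclg1 with the ATP-forming beta subunit Sucla2 or the GTP-forming Suclg2. Suclg1 had 235, 186, 178, 219.8 and 147 CPM in control and 83.1, 90.2, 84.0, 89.5 and 49.7 CPM in Trpm7 cKO (log2 fold change -1.23 ± 0.17, SE, adjusted p = 8.37e-06). Sucla2 had 162, 134, 134, 155 and 159.8 CPM in control and 70.2, 66.2, 76.7, 74.6 and 55.2 CPM in Trpm7 cKO (log2 fold change -1.10 ± 0.15, SE, adjusted p = 6.42e-06). Neither of these overlapped between genotypes. Suclg2 had 29.8, 33.0, 23.6, 34.1 and 22 CPM in control and 24.0, 40.5, 43.8, 23.2 and 11 CPM in Trpm7 cKO, so that libraries of both genotypes were interleaved. Its log2 fold change was 0.04 (95% interval -0.53 to 0.6, adjusted p = 0.927), or -0.48 and -1.11 under the common shifts.

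Of the last enzymes, Fh1, fumarase, had 38.6 to 54.7 CPM in control and 5.52 to 38.6 CPM in Trpm7 cKO, where replicate 5 rested on 1 count. The log2 fold change of -0.57 (95% interval -1.08 to -0.06) was not called (adjusted p = 0.0613), and it was called without Trpm7 cKO 4 (adjusted p = 0.0444). Mdh1, the cytosolic malate dehydrogenase of the malate-aspartate shuttle, had 177, 149, 188, 192 and 157 CPM in control and 99.8, 114, 102, 121 and 33.1 CPM in Trpm7 cKO. It was lower in every Trpm7 cKO library (log2 fold change -0.79 ± 0.19, SE, adjusted p = 0.00203), with replicate 5, the smallest library, lowest. In all, 9 of the 14 TCA cycle genes were lower (64.3%), 0 were higher and 5 were not called, with 9 lower and 0 higher in DESeq2 and limma-voom too and a median log2 fold change of -0.57. The 14 genes summed to 2947, 2537, 2811, 2860 and 2444 CPM in control and 1412, 1367, 1264, 1584 and 1098 CPM in Trpm7 cKO.

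**Figure D3:**
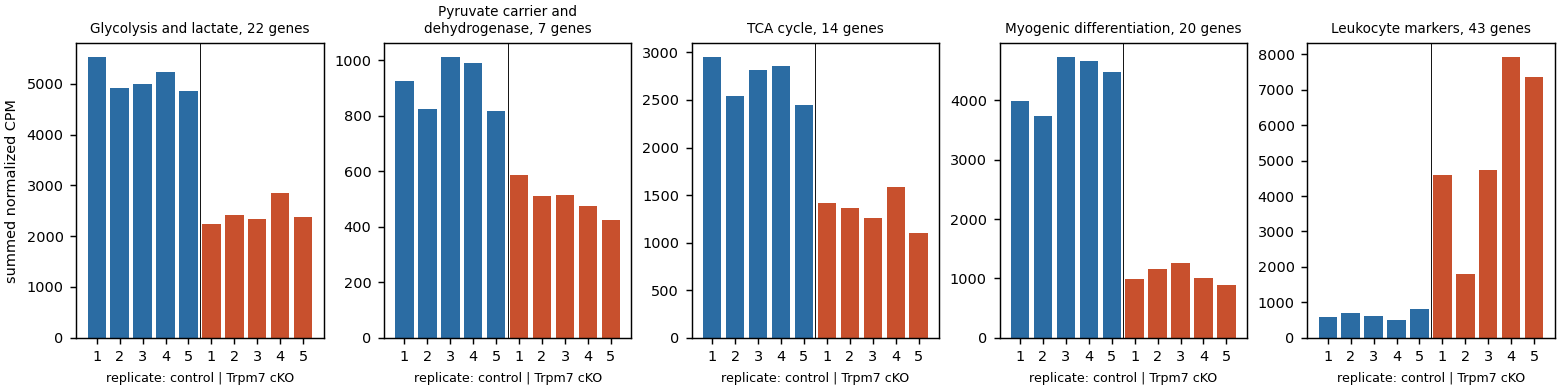
Summed normalized level (vertical axis, CPM, bars from 0) of the glycolysis, pyruvate dehydrogenase and TCA cycle genes, of myogenic differentiation genes and of leukocyte markers in each library, with control in blue and Trpm7 cKO in red. The metabolic and differentiation sums are lower in every Trpm7 cKO library and the leukocyte sum is higher in every one, lowest in Trpm7 cKO 2 at 1802 CPM.

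The summed level of myogenic differentiation genes was also lower in every Trpm7 cKO library. Of 15 tested, 11 were lower (73.3%, compared with 24.1% of all tested genes) and 2 were higher (13.3%, compared with 24.6%). These 2 were Tnni1 and Mef2c (log2 fold changes 2.08 and 1.39), named after their values were seen. The list summed to 3745 to 4725 CPM in control and 883 to 1261 CPM in Trpm7 cKO. The part of differentiation in the decrease of muscle forms such as Eno3 was not tested.

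Partner genes were then compared as shares of their summed counts within each library, which do not depend on the depth factor of a library. Of 15 pairs listed, 14 had at least 5 counts in every library, and 7 differed between genotypes by an exact two-sided permutation test adjusted over the 14, in which 5 against 5 libraries cannot give a p below 0.00794. Eno3 made up 85.0, 82.1, 83.1, 84.0 and 88.4% of Eno3 and Eno1 counts in control and 75.0, 73.1, 80.0, 77.9 and 64.7% in Trpm7 cKO. The 2 groups did not overlap (84.5 ± 2.43% and 74.1 ± 5.91%, SD, n = 5 each, exact permutation, adjusted p = 0.0278), so that the muscle enolase decreased more than the common one. Ldhb made up 1.35 ± 0.421% of Ldha and Ldhb in control and 2.99 ± 0.623% in Trpm7 cKO (exact permutation, adjusted p = 0.0278), without overlap but with at most 14 Ldhb counts in a library.

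The subunit ratios of mitochondrial complexes shifted as well. The Idh3b share of Idh3a and Idh3b was 38.5, 32.5, 36.3, 30.4 and 32.9% in control and 44.3, 42.4, 41.9, 42.9 and 73.3% in Trpm7 cKO (exact permutation, adjusted p = 0.0278). Trpm7 cKO 5 was far above the rest, and without it the difference dropped from 14.9 to 8.77 percentage points and was still called (exact permutation, adjusted p = 0.0317). The Idh3g share of Idh3a and Idh3g rose from 22.5 ± 5.74% to 34.4 ± 5.69%, with 1 control library inside the Trpm7 cKO range (exact permutation, SD, n = 5 each, adjusted p = 0.037). The Pdhb share of Pdha1 and Pdhb rose from 44.0 ± 2.1% to 52.8 ± 7.75%, with Trpm7 cKO 2 at 45.8% inside the control range (exact permutation, SD, n = 5 each, adjusted p = 0.037). The Suclg2 share of Sucla2 and Suclg2 rose from 16.1 ± 2.95% to 28.0 ± 8.97%, with Trpm7 cKO 5 at 16.7% inside the control range (exact permutation, SD, n = 5 each, adjusted p = 0.0476). In each of these pairs the gene called lower with the larger log2 fold change was the one whose share dropped. Shares and fold changes come from the same counts, so this is not a separate result.

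The Slc16a3 share of Slc16a1 and Slc16a3 was 0.599 to 2.56% in control and 3.03 to 23.8% in Trpm7 cKO (exact permutation, adjusted p = 0.0278), on 1 to 5 Slc16a3 counts per library. The cytosolic and mitochondrial malate dehydrogenases did not pass the test: the Mdh2 share was 80.2 ± 1.11% in control and 73.4 ± 5.5% in Trpm7 cKO (exact permutation, SD, n = 5 each, adjusted p = 0.0833). The Hk2 share of the hexokinases was 42.9 ± 7.04% and 48.2 ± 10.8% (exact permutation, SD, n = 5 each, adjusted p = 0.41). When all libraries were thinned to the depth of the smallest, the Eno3 and Ldhb shares were still called, and the other 5 were not.

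**Figure D4:**
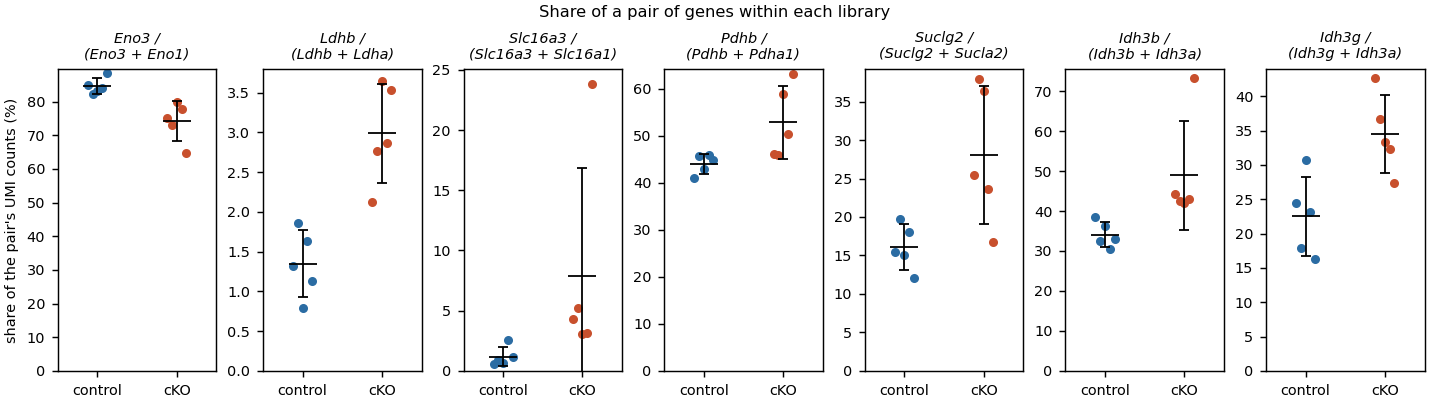
Share of the first gene in the counts of each pair (vertical axes, percent, each from 0) for the 7 pairs that passed the test, with points for the 5 libraries of each genotype and bars for the mean ± SD. The Eno3 share is lower in every Trpm7 cKO library, and the single high points of Slc16a3 and Idh3b are Trpm7 cKO 5.

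More genes of neighbouring pathways were called lower than higher, and each of those named below was called. Of 92 listed, 50 were tested, 21 were lower (42%) and 5 higher (10%), with a median log2 fold change of -0.23. Of all tested genes, 24.1% were lower and 24.6% higher. Around glycolysis, 3 of 4 tested genes were lower. Gpd2, the mitochondrial arm of the glycerol phosphate shuttle, had 105 ± 19.4 CPM in control and 33.0 ± 13.3 CPM in Trpm7 cKO (SD, n = 5 each, log2 fold change -1.61). Tigar, a phosphatase that lowers fructose 2,6-bisphosphate and so acts against Pfkfb3, had 30.6 ± 5.16 CPM and 9.35 ± 5.06 CPM (SD, n = 5 each, log2 fold change -1.52). Pdhx, which anchors Dld in the pyruvate dehydrogenase complex, had 42.4 ± 10.6 CPM and 15.3 ± 8.12 CPM (SD, n = 5 each, log2 fold change -1.41). It was listed with regulators and other genes of the complex, and 3 of the 4 tested genes of that list were lower. Among them was Pdk3 (log2 fold change -0.72), one of the kinases that inactivate the complex.

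Of 15 tested genes next to the TCA cycle, 8 were lower (53.3%) and 0 higher. Got1, the cytosolic aspartate aminotransferase that works with Mdh1 in the malate-aspartate shuttle, had 236, 155, 237, 274 and 157 CPM in control and 42.5, 51.5, 29.2, 87.8 and 44.1 CPM in Trpm7 cKO (log2 fold change -1.97 ± 0.24, SE, without overlap). Me1, the malic enzyme that makes NADPH, had 29.6 ± 4.31 CPM and 11.1 ± 5.38 CPM (SD, n = 5 each, log2 fold change -1.56). Of 7 tested pentose phosphate genes, 3 were lower (42.9%, compared with 24.1% of all tested genes). Another 2 were higher (28.6%), near the 24.6% of all tested genes. G6pdx, the enzyme that opens that pathway, had 70.8 ± 11 CPM in control and 25.9 ± 10.4 CPM in Trpm7 cKO (SD, n = 5 each, log2 fold change -1.32), whereas Rpia, which makes ribose 5-phosphate, had 14 ± 3.11 CPM and 27.1 ± 10.8 CPM (SD, n = 5 each, log2 fold change 0.84). Of 9 glycogen and gluconeogenesis genes, 2 were lower (22.2%, near the 24.1% of all tested genes), including Pgm1 (40.3 ± 9.95 and 23.3 ± 4.45 CPM, SD, n = 5 each, log2 fold change -0.75).

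The hypoxia response controls many glycolysis genes, and its genes were listed together with other metabolic regulators. Of 11 tested genes of this mixed list, 2 were lower (18.2%) and 3 higher (27.3%). These shares were near those of all tested genes (24.1% and 24.6%). Lower were Egln3 and Ppargc1b (log2 fold change -0.89), of which Ppargc1b is one of the other regulators. Higher were Hif1a (0.42), Arnt (0.79) and Epas1, which encode subunits of the hypoxia-inducible factors. Egln3, a prolyl hydroxylase that marks the hypoxia-inducible factors for degradation and is itself induced by them, had 127, 66.1, 151, 149 and 89.1 CPM in control and 16.6, 9.20, 11, 21.5 and 0 CPM in Trpm7 cKO. It was lower in every Trpm7 cKO library, by 8.38-fold in the fit (log2 fold change -3.07 ± 0.34, SE). Epas1, which encodes HIF-2 alpha and is high in endothelial cells, had 14.9, 6.20, 3.22, 22.1 and 9.26 CPM in control and 38.8, 51.5, 54.8, 74.6 and 60.7 CPM in Trpm7 cKO (log2 fold change 2.29 ± 0.34, SE, without overlap). Endothelial markers were higher in the same libraries, and their part in the Epas1 level was not tested.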

How the data were processed

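The deposited table held raw UMI counts per gene for each library. The authors made them from CEL-Seq2 reads with UMI-tools 1.1.4, Trim Galore 0.6.10, HISAT2 2.2.1 and featureCounts 2.0.6 on GRCm38, and compared groups with DESeq2 1.30.1. The annotation release and strand setting are not given in the sources used here. Each sample was assigned by its title. Nothing says whether each library came from 1 animal, and Trpm7 cKO 4 and 5 share a number in their library names, so p-values measure the spread between these libraries.

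Counts were analysed in R 4.3.3 with edgeR 4.0.16: filterByExpr (minimum count 10, total 15), TMM factors, robust quasi-likelihood fits, an F test of genotype over the 10 libraries, and Benjamini-Hochberg adjustment over 7753 genes. DESeq2 1.42.0, limma-voom 3.58.1, other scalings, filters, thinning, a leukocyte covariate, a replicate block and left-out libraries were alternatives, and the procedure was tested on simulated data. SE is the absolute log2 fold change divided by the square root of F. Pair shares were tested over the 252 assignments of 10 libraries. Libraries of the same number did not vary together (correlations -0.12 to 0.18). Transcript ends were compared as 31-base words in GENCODE vM21.

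The genes and lists were chosen with earlier results of these data known. Every member could be named, those called and the listed partners with values. Of neighbouring lists, genes past both thresholds were named, or else the called gene with the largest change in each direction. Hif1a, Arnt, Ppargc1b, Pdk3 and Eno2 were named in addition, after their values were seen.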

Additional observations from a re-analysis of the deposited data

Results flagged for a closer look

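Each result below had a sample whose gap to the nearest other sample of its group was more than 0.71 of the range of that group. Of 88 groups of 5 samples examined, 11 had one, and chance gives about 1 in 20. In Trpm7 cKO 5, the smallest library, Idh3a had 44.1 CPM (the others 65.8 to 72.9), Suclg1 49.7 CPM (83.1 to 90.2) and Mdh1 33.1 CPM (99.8 to 121). The same library had 121 CPM of Idh3b (47.5 to 57.3), which made the Idh3b share of Idh3a and Idh3b 73.3% (41.9 to 44.3%), and a Slc16a3 share of 23.8% (3.03 to 5.26%). Idh3a, Suclg1, Mdh1 and Idh3b were called lower without this library as well, with log2 fold changes of -1.32, -1.15, -0.65 and -0.77, and the Slc16a3 share then differed by 2.76 percentage points.

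In Trpm7 cKO 4 the glycolysis and lactate genes summed to 2848 CPM (2232 to 2409 in the others) and Pkm had 704 CPM (439.8 to 495), below every control library in both cases. In Trpm7 cKO 3 Slc2a1 had 29.2 CPM (8.28 to 12.9), from 8 counts. In control 5 Eno1 had 44.0 CPM (70.3 to 72.3), and in control 4 Idh3a had 214 CPM (161 to 172).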

How the results depend on the processing

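All 23 called genes were called in the same direction with relative log expression factors, DESeq2, limma-voom, no filter on low counts, scaling on MuSC identity genes (median of all genes -0.51), counts per 3000 sorted cells (-1.15) and Trpm7 cKO 4 and 5 summed, 20 with total counts alone, and 15 of the 20 that could be tested after thinning. Identity scaling and counts per 3000 sorted cells move all genes down, so they are no check on the genes called lower. With the replicate numbers as a block, which the numbers do not justify as a pairing (only libraries of number 5 matched each other best), 21 of the 23 were called, all but Gpi1 and Idh2, and Suclg2 was -0.03.

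With the leukocyte covariate, genes called lower numbered 4 for glycolysis, 0 for pyruvate dehydrogenase and 0 for the TCA cycle, with the median over the 34 genes at -0.78 as without it. The TCA cycle count was 14 per 3000 sorted cells and 5 after thinning. One pyruvate dehydrogenase gene, Mpc2, was called higher with total counts alone (1 against 0). Genes past both thresholds and lower, 3 as reported, numbered 13 with scaling on MuSC identity genes, 26 per 3000 sorted cells and 7 without a filter, where all genes so called went from 274 to 798, 2461 and 623, and 1 without Trpm7 cKO 3 and 5, an alternative chosen after seeing the data. With the stricter filter and after thinning Pfkfb3 had too few control counts to be tested, which left 0 higher. Leaving out 1 library gave 9 to 11 (glycolysis), 3 to 3 (pyruvate dehydrogenase) and 7 to 11 (TCA cycle) lower, 0 to 1 pyruvate dehydrogenase genes higher (Mpc2, without Trpm7 cKO 4), and 2 to 5 lower past both thresholds, with 5 without Trpm7 cKO 4.

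Signs turned for genes that were not called, under the first 2 settings because these shift all genes: Hk1 (-0.41 with identity scaling, -1.07 per 3000 cells, -0.12 without a filter, -0.02 without Trpm7 cKO 4 and 5), Hk2 (-0.12, -0.90, -0.26 with the covariate, -0.04 without Trpm7 cKO 3 and 5), Mpc2 (-0.12, -0.78), Pdk4 (-0.44, -1.06, -0.11 without a filter, 0.00 with the covariate, -0.04 to 0.27 with 1 library left out, of which 0.00 without control 3 and -0.04 without Trpm7 cKO 1), Suclg2 (-0.48, -1.11, -0.16 without a filter, -0.16 to 0.14 with 1 library left out, of which -0.04 and -0.02 without control 3 and 5, -0.16 and -0.09 without Trpm7 cKO 2 and 3), Slc2a1 (0.02) and Idh3g (0.79) with the covariate, and Pfkp (0.39) after thinning. The causes were not tested.

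Differences in share, in percentage points, lost their call after thinning for Slc16a3 (6.97), Pdhb (12.2), Suclg2 (8.79), Idh3b (11.7) and Idh3g (8.48), while Pdk4 turned to 1.16. With Trpm7 cKO 4 and 5 summed, Pdhb was not called (6.86) and Mdh2 was (-8.7). As log2 ratios, Aldoc was called (3.22) and Mpc2 turned to -0.311. Leaving out 1 library gave -11.8 to -8.0 for Eno3, 1.47 to 1.85 for Ldhb, 2.76 to 7.95 for Slc16a3, 6.24 to 10.5 for Pdhb, 9.47 to 14.8 for Suclg2, 8.77 to 16.6 for Idh3b, 9.89 to 14 for Idh3g, -8.99 to -5.33 for Mdh2 and -8.54 to -3.54 for Pfkp. Adjusted p was then 0.0317 to 0.0556 for Eno3, Ldhb, Slc16a3 and Idh3b, since fewer assignments of 9 libraries exist, with calls lost in 6 of 10 fits each. Pdhb and Idh3g lost theirs in 8 of 10 (adjusted p up to 0.0741) and Suclg2 in 9 of 10 (up to 0.0952). Libraries of 205986 to 581121 counts limited Trpm7 cKO values to a few counts for the rarer genes.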
